A study of Rattus norvegicus with 13 samples.

Results

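The neuronal intermediate filament genes are *Nefl*, *Nefm* and *Nefh*, which encode the light, medium and heavy neurofilament chains, *Ina*, which encodes alpha-internexin, and *Prph*, which encodes peripherin. Their members were taken as the array's probe sets, groups of short probes read as 1 value, that are annotated with a single symbol of this family. This gave 7 probe sets for the 5 genes, of 31099 on the array. *Nefl* and *Ina* have 2 probe sets each, and *Nefm*, *Nefh* and *Prph* have 1 each. Polyadenylated RNA of rat cortical cultures was measured on 13 GeneChip arrays after 13 days in a microfluidic platform that keeps axons apart from cell bodies. The groups were 3 arrays of regenerating axons, cut on day 11 and left to regrow for 2 days, 3 arrays of uninjured neurons from the neuronal compartment, and 7 arrays of uninjured axons from 3 culture batches. Every array held material pooled from 3 platforms and amplified in 2 rounds. The labels give no genotype or age of the animals. They do not say which uninjured array came from which batch, or whether the arrays of regenerating axons or of neurons came from separate cultures, so the spread behind the p-values may be technical in part.

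The deposited values are ratios, not signal levels, so they do not show how much of a transcript axons hold. Uninjured array 7 reads exactly 1 throughout and holds no measurement, which leaves 6 uninjured arrays. Arrays 1 to 3 and arrays 4 to 6 were each divided by their own median, so the median of the 6 is at or near 1 for each probe set and uninjured arrays are given by their range. The level that divided the neuron and regenerating arrays is not given in the sources used here and was taken to be that of uninjured axons, and every direction against uninjured axons rests on this. Against uninjured axons a difference is the mean log2 ratio of the 3 arrays, so it is taken from a ratio of 1. The uninjured arrays enter only its spread. Differences are given as log2 of the ratio with standard errors (SE, n = 3 arrays). Against uninjured axons these include an assigned error of 1 array for the reference. In the comparison of regenerating axons with neurons they include none. P-values are limma's, adjusted over 31042 probe sets, with a threshold of 0.05. In this bulk RNA, fewer cells of a type and less RNA per cell cannot be told apart.

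Neuronal intermediate filaments are long, stable polymers that fill mature axons. The light chain forms their core with the medium and heavy chains, and in central neurons alpha-internexin joins the same filaments. The tails of the medium and heavy chains carry many phosphorylation sites and project from the filament, and their phosphorylation goes with a wide axon. The proteins are made largely in the cell body and carried along the axon by slow transport. Peripherin is best known from peripheral neurons, where its amount increases after injury. *Nefl* and *Nefm* are neighbouring protein-coding genes on the same rat chromosome, while *Nefh*, *Ina* and *Prph* each lie on a chromosome of their own.

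In neurons the messenger RNAs of alpha-internexin and of the light and medium chains were 5.38 to 22.3 times their level in uninjured axons, the heavy chain 1.58 times, and peripherin was not found to differ. In regenerating axons none of the 7 probe sets passed the threshold against uninjured axons. The plot of ratios by array shows all values behind both statements.

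**Figure D1:**
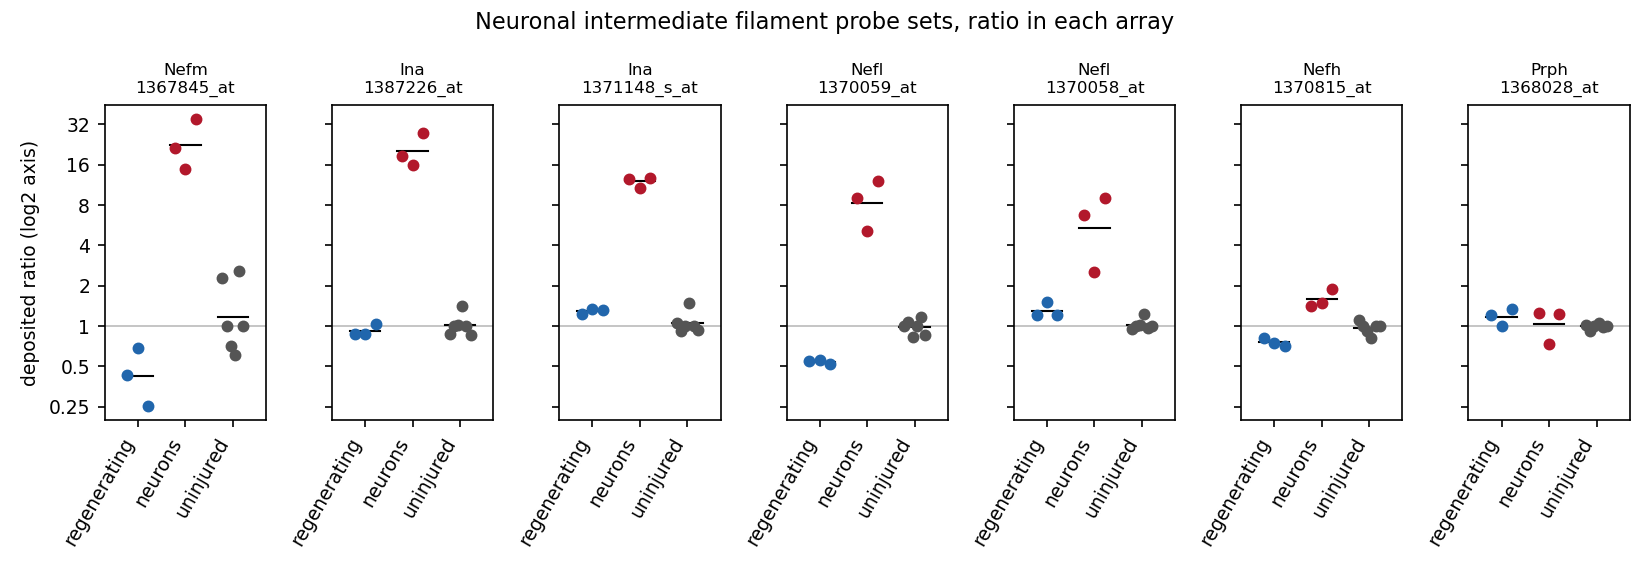
Deposited ratio (log2 axis) of the 7 probe sets in each array; points are arrays (3 regenerating, 3 neurons, 6 uninjured with a measurement) and the line is the mean of the log2 ratios. The neuron arrays lie between 2.55 and 34.9 for *Nefm*, *Ina* and *Nefl* and between 0.737 and 1.90 for *Nefh* and *Prph*.

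The light chain gene *Nefl* was higher in neurons by both of its probe sets. Probe set 1370059_at read 9.06, 5.13 and 12.0001 in the 3 neuron arrays, against 0.825 to 1.17 in the 6 uninjured axon arrays. Every neuron array lay above every uninjured array, and array 2 was the lowest of the 3. The difference was 8.23-fold (log2 3.04 ± 0.40, adjusted p = 0.000231). Probe set 1370058_at read 6.77, 2.55 and 9.04 in neurons, against 0.949 to 1.22 in uninjured axons. Its groups did not overlap either, and the array order was the same. The difference was 5.38-fold (log2 2.43 ± 0.54, adjusted p = 0.00423), and with the spread taken from the neuron arrays alone it no longer passed (adjusted p = 0.0506).

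The medium chain gene *Nefm* (1367845_at) had the largest mean ratio of the family in neurons, although *Ina* 1387226_at read higher in neuron array 2. It read 21.3, 14.9 and 34.9 in neurons, against 0.608 to 2.56 in uninjured axons. The lowest neuron array stood well above the highest uninjured one. The difference was 22.3-fold (log2 4.48 ± 0.80, adjusted p = 0.00138), with a 95% interval from 6.48-fold to 76.7-fold. It is taken from a ratio of 1, while the 6 uninjured arrays had a mean log2 ratio of 0.22. Its wide interval goes with a wide spread among uninjured arrays. Within their sets of 3 the uninjured log2 ratios of *Nefm* had an SD of 0.96, above 99.1% of probe sets, where the median probe set had 0.21. Uninjured arrays 1 and 5, at 2.28 and 2.56, were the high ones, and arrays 3 and 4, at 0.715 and 0.608, the low ones. The other 6 probe sets had SDs from 0.070 to 0.27.

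The alpha-internexin gene *Ina* was higher in neurons by both of its probe sets as well. Probe set 1387226_at read 18.7, 15.8 and 27.3 in neurons, against 0.858 to 1.41 in uninjured axons. The difference was 20.1-fold (log2 4.33 ± 0.34, adjusted p = 1.27e-05). Probe set 1371148_s_at read 12.6, 10.8 and 12.8 in neurons, against 0.914 to 1.49 in uninjured axons. Its neuron arrays were the closest together of those of the 7 probe sets, with an SD of 0.13 on the log2 scale. The difference was 12.03-fold (log2 3.59 ± 0.27, adjusted p = 1.07e-05).

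The heavy chain gene *Nefh* (1370815_at) differed less. It read 1.402, 1.496 and 1.896 in neurons, against 0.8155 to 1.11 in uninjured axons. The groups did not overlap, and the difference was 1.58-fold (log2 0.66 ± 0.24, adjusted p = 0.0361), with a 95% interval from 1.10-fold to 2.28-fold. Without neuron array 3 the log2 difference was 0.53 and the adjusted p = 0.0744, and without uninjured array 2 in the spread the adjusted p = 0.0530. The range of adjusted p over 19 alternatives was 0.000458 to 0.103.

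The peripherin gene *Prph* (1368028_at) read 1.26, 0.737 and 1.22 in neurons, against 0.915 to 1.06 in uninjured axons. Neuron arrays lay on both sides of the uninjured range. The log2 difference was 0.06 ± 0.29 (adjusted p = 0.863), and its 95% interval runs from -0.58 to 0.70.

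Of the 7 probe sets, 6 were thus called higher in neurons and 0 lower, in a comparison that called 28.4% of all probe sets higher and 27.5% lower. Groups did not overlap, with neurons higher, for the same 6 and for 33.1% of all probe sets, and with neurons lower for 0 of the 7 and 36.8%. The median log2 difference of the 7 was 3.04, beside -0.07 over all probe sets. Within the neuron arrays the ratios of *Nefm* lay between percentiles 97.5 and 99.3 of all probe sets, and those of *Ina* between 95.4 and 98.8. *Nefl* lay between percentiles 81.3 and 94.9, *Nefh* between 65.4 and 70.7, and *Prph* between 34.6 and 62.2. Of neighbours in the order of these ratios, *Nefm* and *Ina* 1387226_at overlapped between arrays, as did *Ina* 1371148_s_at with *Nefl* 1370059_at, and the probe sets of *Nefl* with each other. The other 3 neighbouring pairs did not: the probe sets of *Ina*, *Nefl* 1370058_at and *Nefh*, and *Nefh* and *Prph*. Within each neuron array, *Ina* 1371148_s_at read above *Nefl* 1370059_at, which read above *Nefl* 1370058_at. This is an order of ratios to axons, not of amounts of messenger RNA.

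A ratio of 1 is not the centre of every gene class in this comparison. Probe sets of smell, taste and pheromone receptor genes, taken as largely silent in cortex (which was not tested), had a median log2 difference of -1.003 (28 probe sets, -1.61 to 0.20), with 19 called lower and 0 higher. *Nefh*, at 0.66, lay above all of them and *Prph*, at 0.06, within their range. Neuron array 2 read lowest for 6 of the 7 probe sets. The bacterial transcripts added as hybridisation controls (9 probe sets, geometric mean) read 0.319, 1.01 and 0.181 times the reference in neuron arrays 1, 2 and 3, and the part of this in the results was not tested. In array 2, which read nearest to the reference in these controls, *Nefm* was at 14.9, *Ina* at 10.8 and 15.8, *Nefl* at 2.55 and 5.13, *Nefh* at 1.496 and *Prph* at 0.737.

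**Figure D2:**
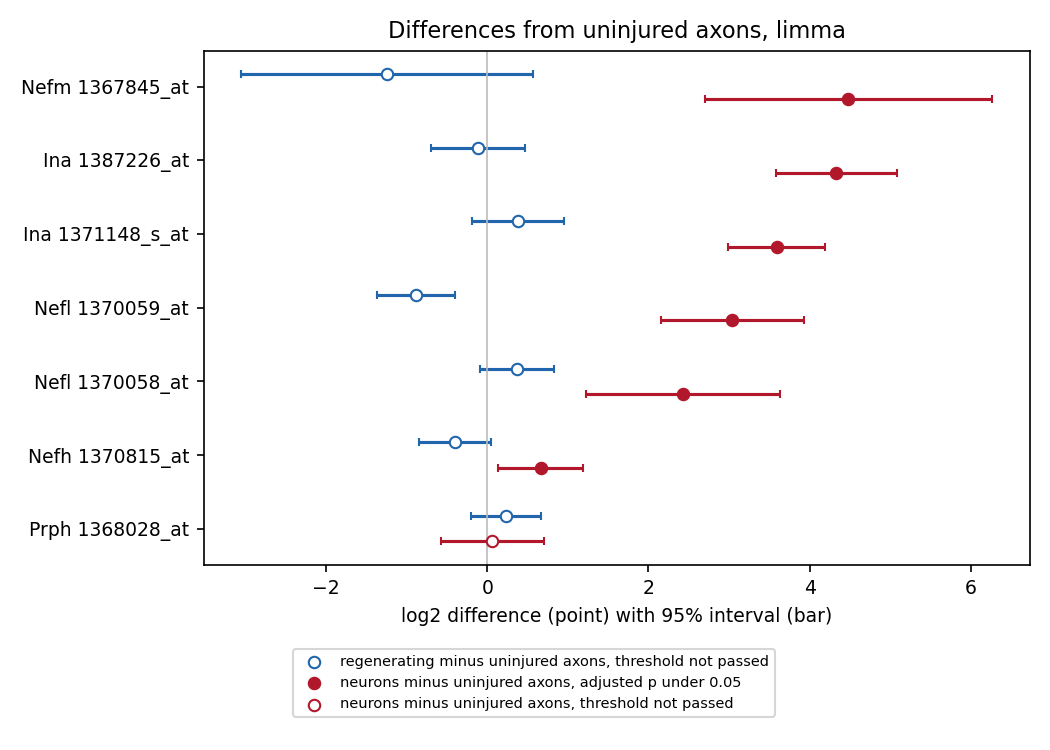
Log2 difference from uninjured axons of each probe set (point) with its 95% interval (bar), for regenerating axons and for neurons; filled points passed the threshold. In neurons 6 of 7 passed, from 0.66 to 4.48, and in regenerating axons 0 of 7, from -1.24 to 0.38.

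Among the RefSeq promoter sequences used here, only 2 of the 5 genes were present, *Ina* and *Prph*, and these are shown for that reason. They stand near opposite ends of the neuron comparison, and whether their promoters bear on this was not tested. The *Ina* stretch is the 250 bases before the gene's start on GRCr8, plus strand, chr1:255837879-255838128. The *Prph* stretch is 30 bases, plus strand, chr7:132097242-132097271, before the start used by that table, and other annotated *Prph* transcripts begin further upstream. Capitals mark the TATA box, searched as TATAAA, and the GC box, searched as GGGCGG, each on both strands; the marked matches do not overlap.
Ina: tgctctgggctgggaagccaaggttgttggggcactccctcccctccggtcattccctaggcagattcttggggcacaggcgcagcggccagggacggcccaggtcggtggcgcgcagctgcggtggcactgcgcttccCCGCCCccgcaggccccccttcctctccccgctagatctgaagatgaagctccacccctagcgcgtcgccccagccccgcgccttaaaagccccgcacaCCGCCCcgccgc
Prph: ataccgcagggcTATAAAgCCGCCCcgcat
In the 250 bases before the start, *Ina* has 2 GC boxes, beginning 111 and 12 bases before it, and 0 TATA boxes. *Prph* has 1 TATA box and 1 GC box, beginning 35 and 28 bases before its start. Of 33469 promoter windows of this length, 30.5% hold the GC box letters and 12.9% the TATA box letters. The letters CCAAT (34.0% of windows), TGANTCA (6.34%), which AP-1 factors bind, and TGACGTCA (1.59%), the cyclic AMP response element, occur in neither. CANNTG, the E-box (65.5%), occurs 1 time in *Ina* and 0 times in *Prph*. A match to letters is not a site in use.

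Regenerating axons were set against uninjured axons to see which axonal messenger RNAs differ 2 days after the cut. This comparison called 0.335% of all probe sets lower and 0.00966% higher, and none of the 7. At an unadjusted p under 0.05 in limma, 1 of the 7 was lower and 0 were higher, and over all probe sets 2138 were lower and 1231 higher. The median log2 difference was -0.11 over the 7 and 0.03 over all probe sets. Regenerating arrays stood apart from uninjured ones without overlap, on the lower side, in 10.9% of all probe sets and in 1 of the 7, and on the higher side in 10.3% and in 0 of the 7.

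That probe set was *Nefl* 1370059_at. It read 0.545, 0.557 and 0.523 in regenerating axons, against 0.825 to 1.17 in uninjured axons. The 3 regenerating arrays were nearly equal and all below the uninjured range. The log2 difference was -0.89 ± 0.22 (adjusted p = 0.135, 95% interval -1.37 to -0.40). The call depends on the error given to the reference: the adjusted p was 0.0112 with the error of 3 arrays and 0.000624 without any. The other *Nefl* probe set, 1370058_at, read 1.208, 1.502 and 1.201 in regenerating axons, against 0.949 to 1.22 in uninjured axons. Array 2 lay above the uninjured range, and arrays 1 and 3 lay between its highest array and the other 5, at a log2 difference of 0.37 ± 0.21 (adjusted p = 0.575). The probe sets of *Nefl* thus differed in sign, and their mean was -0.26 ± 0.17 in log2 (adjusted p = 0.628).

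*Nefm* read 0.431, 0.692 and 0.255 in regenerating axons, against 0.608 to 2.56 in uninjured axons. All 3 regenerating values were below 1, and array 2 overlapped the uninjured range. The log2 difference was -1.24 ± 0.81 (adjusted p = 0.666), and its 95% interval, -3.05 to 0.57, allows a large fall as well as a modest rise. This difference too is from a ratio of 1, where the uninjured arrays averaged 0.22 in log2. *Nefh* read 0.821, 0.753 and 0.713 in regenerating axons, against 0.8155 to 1.11 in uninjured axons. Only uninjured array 4 reached down among the regenerating arrays, at a log2 difference of -0.39 ± 0.20 (adjusted p = 0.534).

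*Ina* 1387226_at read 0.870, 0.874 and 1.04 in regenerating axons, against 0.858 to 1.41 in uninjured axons. *Ina* 1371148_s_at read 1.24, 1.35 and 1.32 in regenerating axons, against 0.914 to 1.49 in uninjured axons. Both overlapped the uninjured range, with log2 differences of -0.11 ± 0.26 and 0.38 ± 0.25 (adjusted p = 0.943 and 0.673 in limma). For 1371148_s_at only uninjured array 4, at 1.49, reached as high as the regenerating arrays. *Prph*, the member known to increase in injured peripheral neurons, read 1.22, 1.001 and 1.33 in regenerating axons, against 0.915 to 1.06 in uninjured axons. Array 2 lay inside the uninjured range, and the log2 difference was 0.23 ± 0.20 (adjusted p = 0.773, 95% interval -0.20 to 0.67).

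Probe sets of the same gene were then compared within each array, a comparison chosen after these values were seen. It was fitted to all 9597 pairs of single-symbol probe sets from 4525 genes. For *Nefl*, 1370058_at minus 1370059_at was 1.149, 1.432 and 1.198 on the log2 scale in regenerating axons, -0.42, -1.01 and -0.41 in neurons, and -0.27 to 0.31 in uninjured axons. The 3 groups did not overlap, as in 10.5% of all pairs. Regenerating axons exceeded neurons in this difference by 1.87 ± 0.25 (adjusted p = 0.000157), in a comparison that called 66.2% of all pairs. Against uninjured axons the regenerating value of 1.26 ± 0.32 did not pass (adjusted p = 0.181), where 0.146% of pairs did. It passed with the reference given the error of 3 arrays (adjusted p = 0.0128).

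For *Ina*, 1371148_s_at minus 1387226_at was 0.51, 0.63 and 0.35 in regenerating axons, -0.57, -0.55 and -1.09 in neurons, and -0.13 to 0.28 in uninjured axons. These groups did not overlap either. Regenerating axons exceeded neurons by 1.23 ± 0.25 (adjusted p = 0.00173). Against uninjured axons the pair gave 0.50 ± 0.28 in regenerating axons (adjusted p = 0.637) and -0.74 ± 0.32 in neurons (adjusted p = 0.0819, where 45.5% of pairs passed). The suffix of 1371148_s_at marks probes that can match more than 1 transcript, and the *Nefl* probe sets were designed from a messenger RNA record (1370058_at) and an expressed sequence tag (1370059_at). In the control probe sets, 3′ minus 5′ of beta-actin was 0.02, -0.63 and -0.40 in log2 in the regenerating arrays, 0.78, 0.42 and 0.60 in the neuron arrays and -0.05 to 0.23 in uninjured arrays 1 to 6. For GAPDH these were -0.48, -1.14 and -0.82 in the regenerating arrays, -2.22, -1.74 and -2.09 in the neuron arrays and -0.15 to 0.48 in uninjured arrays 1 to 6. Their part in the pair differences was not tested.

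**Figure D3:**
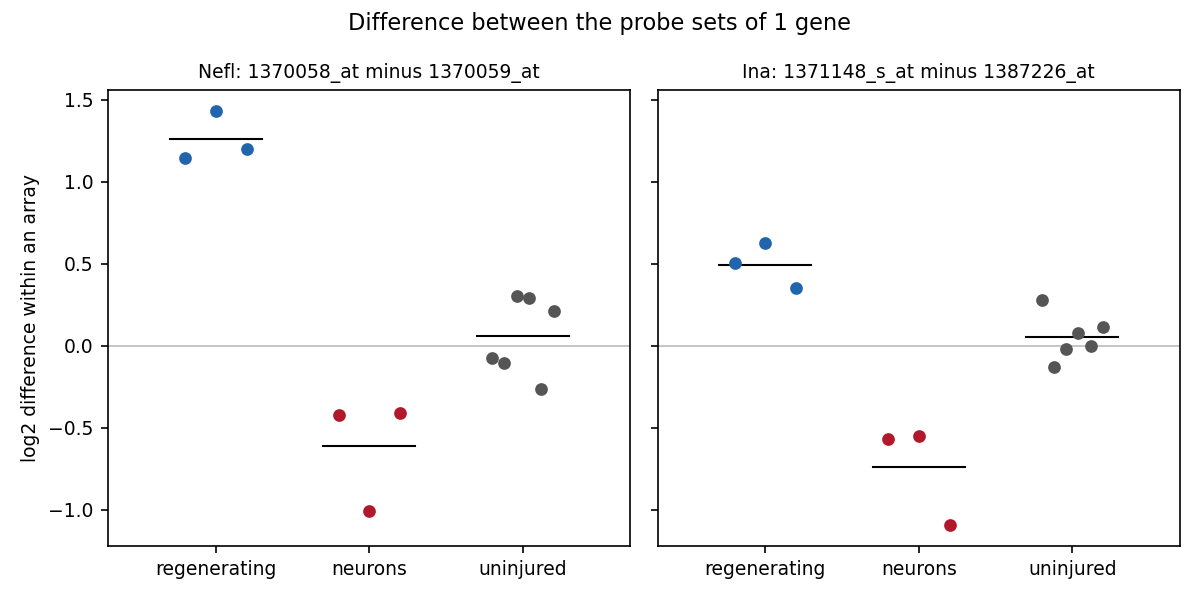
Within-array log2 difference between the 2 probe sets of *Nefl* (left) and of *Ina* (right); points are arrays and the line is their mean. In both panels regenerating axons are highest, neurons lowest and uninjured axons between, without overlap.

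Regenerating axons were also set against neurons directly, which takes both as divided by the same level. Of the 7 probe sets, 6 were lower in regenerating axons and 0 higher, in a comparison that called 35.2% of all probe sets lower and 37.3% higher. The groups did not overlap for the same 6 and, over all probe sets, for 36.9% on the lower and 40.4% on the higher side. *Nefm* was lower by 5.72 ± 0.41 in log2 units (log2 -5.72, adjusted p = 7.80e-06), at 0.255 to 0.692 in regenerating axons and 14.9 to 34.9 in neurons. *Ina* was at -4.44 ± 0.22 and -3.21 ± 0.15, *Nefl* at -3.93 ± 0.29 (1370059_at) and -2.05 ± 0.42 (1370058_at), and *Nefh* at -1.06 ± 0.17, with adjusted p-values from 9.72e-07 to 0.00244. *Prph* did not pass (0.17 ± 0.24, adjusted p = 0.538). These values share the neuron and regenerating arrays with the comparisons above.

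Genes with a pattern like each member were named by the root mean square difference of log2 ratios over the 3 regenerating and 3 neuron arrays. For each member probe set there were 20564 or 20565 candidate probe sets of other genes. With so many candidates and so few arrays, a near match does not show a shared role. Nearest to *Nefm*, at 0.39, were *Gprasp1*, a sorting protein for receptors, and *Psap*, the precursor of lysosomal saposins. Nearest to *Ina* 1387226_at, at 0.12 and 0.13, were *Prkar1b*, a regulatory subunit of protein kinase A, and *Sec22b*, a vesicle fusion protein. *Ina* 1371148_s_at was nearest to *Bcan*, the brain matrix proteoglycan brevican, and *Kifap3*, a kinesin-associated protein (0.078 and 0.12). *Nefl* 1370059_at was nearest to the proteasome subunit gene *Psmb7* and to *Gatd3a* (0.14 and 0.15), and 1370058_at to *Mllt3* and *Commd2* (0.12 and 0.15). *Nefh* was nearest to *Birc2*, an inhibitor of apoptosis, and *Zfp57* (0.091 and 0.11), and *Prph* to *Gdf15*, a stress-induced secreted factor, and *Dnajc5*, a synaptic vesicle chaperone (0.10 and 0.11).

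Among the other intermediate filament genes, 16 probe sets of 13 genes were measured. The neuron comparison called 28.4% of all probe sets higher and 27.5% lower. Of these 16, 2 were higher in neurons than in uninjured axons, 5 were lower and 9 did not pass, with a median log2 of -0.37. The 2 were *Vim*, the vimentin gene of glia and progenitors (22.5, 15.3 and 17.7 in neurons, log2 4.19 ± 0.47), and *Gfap*, the astrocyte filament gene (16.4, 14.4 and 12.5, log2 3.84 ± 0.25). Their ratios lie in the range of those of *Ina*. On the other side the largest differences were those of the keratin gene *Krt5* (log2 -1.26 ± 0.23) and the desmin gene *Des* (-1.17 ± 0.29), both within the receptor genes' range. The progenitor gene *Nes* did not pass (0.62 ± 0.26, adjusted p = 0.0656). Nuclear lamins, which line the nucleus, were higher in neurons in 4 of 6 probe sets (median 1.34). Among them were *Lmnb1* by 1373897_at (2.89 ± 0.93) and *Lmna* by 1368055_a_at (2.11 ± 0.43).

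Among genes whose products act on neurofilaments, more probe sets were higher than lower in neurons. Over all probe sets 28.4% were higher and 27.5% lower. Of 48 probe sets for kinases and phosphatases that act on the chains or on related cytoskeletal proteins, 29 were higher and 6 lower (median log2 1.26). The highest probe sets were 1373479_at of *Ppp3ca*, the calcineurin catalytic subunit gene (4.86 ± 0.97), and 1398251_a_at of *Camk2b* (4.78 ± 0.25), and the lowest were 1370528_at of *Csnk1d* (-1.17 ± 0.28) and 1380061_at of *Ppp2ca* (-1.004 ± 0.30). All 6 probe sets called lower lay within the receptor genes' range (-1.61 to 0.20). Probe sets of 1 gene were called in both directions for 5 of the 22 genes. The other 4 of *Csnk1d* were called higher (1.70 to 2.79), as was the other of *Ppp2ca* (3.88 ± 0.28), and *Ppp3ca* had 1 called lower (-0.91 ± 0.26). Of 44 probe sets for linkers, transport motors and turnover, 23 were higher and 2 lower (median 1.57). *Trim2*, a ubiquitin ligase that binds the light chain in mice, was at 5.68 ± 0.46 and the dynein heavy chain gene *Dync1h1* at 5.04 ± 0.31, while *Kif5c* by 1395997_at was at -1.71 ± 0.44 and the linker gene *Dst* by 1385122_at at -0.66 ± 0.21. *Dst* was also called higher by another probe set (2.86 ± 0.42), and its other 3 probe sets did not pass. Of 11 probe sets for proteins that bind neurofilament or related neuronal messenger RNAs, 6 were higher and 1 lower (median 2.90). *Tardbp* was at 4.58 ± 0.41 by 1377608_a_at and *Elavl2* at 3.61 ± 0.53 by 1383736_at. *Arhgef28*, which binds the light chain messenger RNA in mice, was at -0.73 ± 0.24 by 1396087_at, within the receptor genes' range. Only 2 of 3 probe sets passed for *Tardbp*, 1 of 3 for *Elavl2* and 1 of 2 for *Arhgef28*. Those that did not pass lay between -0.12 and 1.24. In regenerating axons 0 of these 48, 44 and 11 probe sets passed, nor did any of the 16 for other filaments and 6 for lamins. At an unadjusted p under 0.05 in limma, 2, 8, 2, 1 and 0 of them were lower in that order, and 3, 1, 0, 1 and 0 higher. Over all 31042 probe sets 2138 were lower and 1231 higher at that level.

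**Figure D4:**
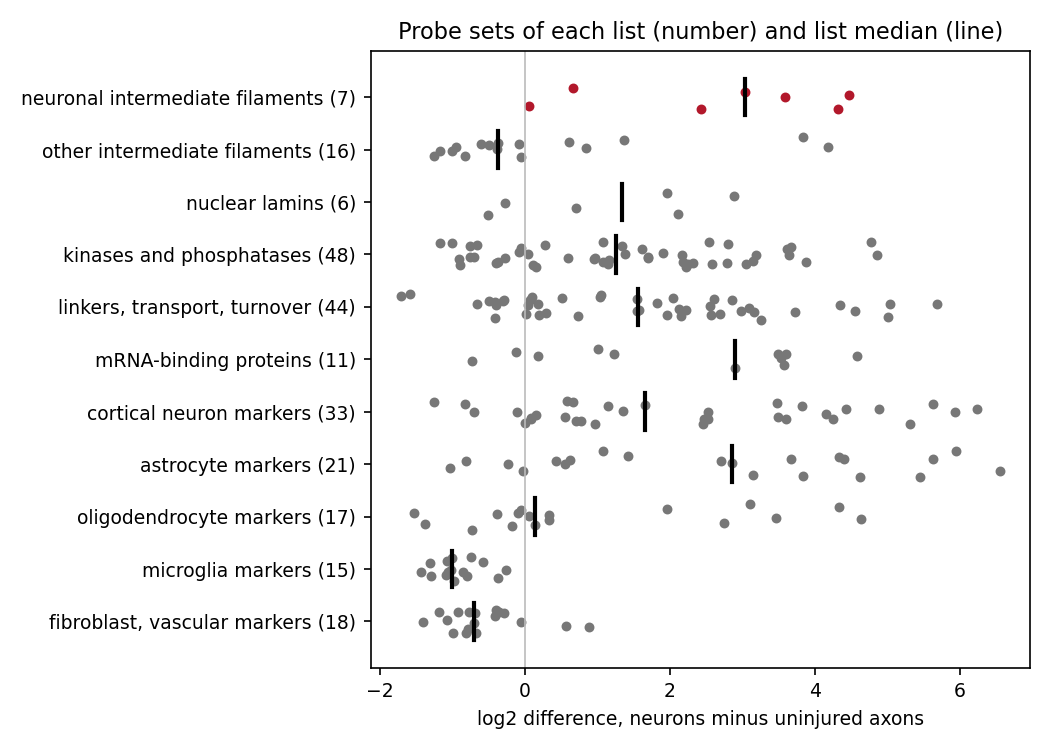
Log2 difference of neurons minus uninjured axons for every probe set of each list, with the number of probe sets in brackets and the list median as a line. The 7 neuronal intermediate filament probe sets have a median of 3.04, beside 2.86 for astrocyte markers and 1.66 for cortical neuron markers.

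In the neuron arrays markers of astrocytes were higher beside those of neurons. The comparison called 28.4% of all probe sets higher and 27.5% lower. Cortical neuron markers were higher than in uninjured axons in 23 of 33 probe sets and lower in 3 (median log2 1.66, -1.25 to 6.24; array medians 1.83, 1.36 and 2.30). Astrocyte markers were higher in 14 of 21 and lower in 2 (median 2.86, -1.03 to 6.55; array medians 2.791, 2.600 and 3.341). Oligodendrocyte lineage markers were higher in 5 of 17, near the share over all probe sets, and lower in 3 (median 0.15). Microglia markers were higher in 0 of 15 and lower in 11 (median -0.999), and fibroblast and vascular markers were higher in 0 of 18 and lower in 11 (median -0.70). All probe sets of these cell lists that were called lower lay within the range of the receptor genes (-1.61 to 0.20, median -1.003). So did every microglia value (-1.43 to -0.25). By themselves these lower calls do not show less RNA of such cells in neurons, which was not tested. The part of these cells in the results for the filament genes was not tested. In regenerating axons 0 of the 33 neuron and 0 of the 21 astrocyte probe sets passed, with medians of -0.11 and -0.11, and at an unadjusted p under 0.05 in limma 9 and 0 of them were lower and 0 and 1 higher. None of the oligodendrocyte, microglia, fibroblast and vascular or receptor probe sets passed there either, with medians of -0.03, 0.35, -0.03 and 0.25. At an unadjusted p under 0.05 in limma, 3, 0, 2 and 0 of them were lower and 0, 1, 0 and 2 higher. Over all 31042 probe sets 2138 were lower and 1231 higher at that level.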

How the data were processed

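RNA was measured on GeneChip arrays, and RMA is named without version or settings per the submitters' processing notes. The deposited table holds a linear ratio for 31099 probe sets on 13 arrays. In every row the median of uninjured arrays 1 to 3, and of 4 to 6, is 1 within 0.0001. All columns were matched to samples by label. Symbols came from the platform annotation: 20826 of the 31042 non-control probe sets carry 1 symbol, 436 several and 9780 none. GRCr8 was used for names, neighbouring genes and promoter sequence. The design of the tests was set for ratios. Log2 ratios were fitted with limma 3.58.1 (R 4.3.3; lmFit, eBayes), with the spread pooled from the 3 arrays of the group and the uninjured arrays about their set means. Benjamini-Hochberg adjustment ran over 31042 probe sets. A 2-group fit compared regenerating axons with neurons. The fit was tested on simulated data. Named genes are all members, per list up to 2 called probe sets at each end of the differences, and the 2 most similar probe sets per member. For *Nes* the value was added after it was seen. Members and lists were chosen with earlier results of these data known. Same-numbered arrays were not found to be paired. The number of arrays limits the precision. Ratios carry no signal over background.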

Additional observations from a re-analysis of the deposited data

Results flagged for a closer look

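Among the 6 measured uninjured axon arrays, array 4 stood apart from the others for 3 of the 7 probe sets. It read 1.49 for *Ina* 1371148_s_at, 1.41 for *Ina* 1387226_at and 1.22 for *Nefl* 1370058_at, each time the highest, with 0.70, 0.67 and 0.72 of the whole log2 range lying between it and the next array, each more than Dixon's 95% critical value for 6 samples. The same array read lowest for *Nefm*, at 0.608, and for *Nefh*, at 0.8155. Over all probe sets some array lay past this value in 18.9% and array 4 in 4.89%. Chance would mark about 1 in 20 groups if the values were free to vary, but division by the set median holds at least 1 of every 3 arrays at 1.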

How the results depend on the processing

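Calls for *Nefm*, *Ina* and *Nefl* 1370059_at in neurons held in all 19 alternatives, and the 6 calls of regenerating axons against neurons in all 11. The alternative by gene gives the probe sets of *Ina* the same value, and likewise those of *Nefl*, so it does not test them singly. *Nefh* in neurons passed in 15 of 19 and *Nefl* 1370058_at in 18. In regenerating axons, with the reference left without error, *Nefl* 1370059_at, *Nefl* 1370058_at and *Nefh* passed (adjusted p = 0.000624, 0.0264 and 0.0195). That setting called 12959 probe sets lower in neurons (8523 as reported), and 3539 higher and 3707 lower in regenerating axons, where 3 and 104 are reported. With the error of 3 arrays these were 582 and 1499. With the spread of the regenerating arrays alone 1 was higher, and with uninjured arrays 1 to 3 out of the spread 224 were lower, with 4 to 6 out 0 were higher and 43 lower. Leaving out 1 array gave 0 to 17 higher and 0 to 462 lower in regenerating axons (0 and 0 without regenerating array 3, 17 and 462 without array 1, 0 and 6 without array 2; without an uninjured array 16 to 294 lower), 8019 to 9832 and 7006 to 9199 in neurons, and 9943 to 11734 and 9926 to 11465 against neurons. By gene, over 14217 genes in place of 31042 probe sets, 5249 were higher and 3271 lower in neurons, 5 higher in regenerating axons, and 4444 higher and 6279 lower in regenerating axons against neurons. Same-numbered arrays correlated at r = -0.31 to 0.13, so no pairing by number was found. This does not show that same-numbered arrays came from separate cultures. With the replicate block, 68 were higher and 600 lower in regenerating axons. The cause of these shifts was not tested. Shifting array medians to 0 and robust eBayes changed no member's call. Leaving out ratios at the lowest value, 0.01, changed none either, but no member ratio was that low, so it does not test the members. It is counted among the 19 and the 11 alternatives. Ratios do not show which probe sets were above background.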
